A study of Homo sapiens with 2 samples.

Results

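Polyamine synthesis and its control were followed through 8 genes among the 33694 gene names counted in each library: *ODC1*, *AMD1*, *SRM*, *SMS*, *OAZ1*, *OAZ2*, *AZIN1* and *SAT1*. The set was chosen by values from these same libraries, because *ODC1* and *SRM* stood much higher at the later stage, and the other 6 genes were added for their roles in the pathway. The difference between stages in *ODC1* and *SRM* is therefore given as a description and supports nothing further. All 8 genes had a row and counts in both libraries, and all 8 reached at least 10 CPM (UMIs per 1000000 UMIs of the library) in 1 of them.

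Single-cell 3′ RNA sequencing was performed on cultures of H9, a human embryonic stem cell line, at 2 stages of differentiation towards the enteric nervous system. At day 10 of enteric neural crest induction the cells were adherent on Geltrex in a medium with SB431542, the WNT activator CHIR 99021 and retinoic acid. At day 15 they were free-floating enteric crestospheres, which had formed in neurobasal medium with FGF2, CHIR 99021 and the N2 and B27 supplements. Each stage is 1 library that pooled cells of 2 biological repeats, and cells could not be assigned to a repeat here. The N2 supplement in its usual formulation contains putrescine, the first polyamine of the pathway. Stage, culture format, medium, depth and library cannot be told apart in this design, so no test was possible and the intervals printed below (95%) cover counting error only.

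Polyamines are small positively charged molecules that bind nucleic acids and that proliferating cells need in quantity. Ornithine decarboxylase (*ODC1*) makes putrescine from ornithine and is the rate-limiting enzyme. S-adenosylmethionine decarboxylase (*AMD1*) provides the aminopropyl donor with which spermidine synthase (*SRM*) and spermine synthase (*SMS*) extend the chain. Antizymes (*OAZ1* and *OAZ2*), whose translation needs a polyamine-stimulated frameshift, bind ornithine decarboxylase and send it to the proteasome, and the antizyme inhibitor (*AZIN1*), an inactive relative of the enzyme, frees it again. Spermidine/spermine acetyltransferase (*SAT1*) acetylates polyamines for oxidation or export. Much of this control acts on translation and protein stability, which the counts of RNA do not show.

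*ODC1* (chromosome 2, 10439968 to 10448504, minus strand) and *SRM* (chromosome 1, 11054584 to 11060024, minus strand; GENCODE on GRCh38) are classical target genes of the MYC proteins, which bind the E-box letters CACGTG. These letters were therefore searched in the 250 bases upstream of the RefSeq start sites (GRCh38.p14). The motif reads the same on both strands, so 1 search covers both. Windows were present for 7 of the 8 genes, 10 in all because some genes have several start sites, and 2 of the 10, 1 each of *ODC1* and *SRM*, held the motif. Among all 35116 windows of this length, 2228 (6.34%) held it. In *SRM* it began 199 bases before the start site at 11060018, and in *ODC1* 29 bases before the second of the listed start sites, at 10448012. The window of the other listed *ODC1* start site, at 10448327, held no motif. The *ODC1* stretch printed below lies downstream of that site, within the span of the gene given above. Both stretches are printed 5′ to 3′ on the strand of the gene, with the motif in capitals, and neither overlaps an annotated exon. A match of letters is a description of the sequence and no evidence that a factor binds there.
SRM, chr1:11060172-11060257, minus strand: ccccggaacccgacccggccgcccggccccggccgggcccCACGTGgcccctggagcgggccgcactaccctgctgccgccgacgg
ODC1, chr2:10448013-10448081, minus strand: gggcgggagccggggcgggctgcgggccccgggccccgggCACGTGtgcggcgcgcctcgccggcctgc

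The day 10 library held 9627 cells with a median of 6713 unique molecular identifiers (UMIs, 1 per captured RNA molecule), and the day 15 library 6320 cells with a median of 11770.5. The depositors kept 7295 and 5336 of these cells and annotated them. At day 10 the kept cells were 4921 enteric neural crest cells (ENCC), 1811 neuro-epithelial progenitors (NEP), 324 cranial placode cells (CP) and 239 non-neural ectoderm cells (NNE). At day 15 they were 4934 ENCC, 208 CP1, 104 NEP, 47 mesenchymal cells (Mes) and 43 CP2. The neural crest marker *SOX10* was at 120 CPM in day 10 ENCC and 103 CPM in day 15 ENCC, against at most 29.9 and 9.21 CPM in the other types of each stage. The day 15 NEP held the NEP markers *WNT2B* and *PAX6* at 123 and 112 CPM, against 827 and 572 CPM in the day 10 NEP. They also held the NNE marker *EPCAM* at 41.0 CPM (30.1 to 54.5), against 9.62 CPM in day 10 NEP and 248 CPM in NNE. The other NNE marker, *CDH1*, was at 1.74 CPM (2 UMIs) in the day 15 NEP, against 94.2 CPM in NNE. Day 15 CP2 held more *PAX6* (381 CPM) than of the CP marker *EYA2* (4.98 CPM), so the deposited name of CP2 goes against these markers and NEP and CP classes are not compared by name between stages. The libraries shared 102 cell barcodes (1.06% of day 10 and 1.61% of day 15 cells).

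In the whole libraries the synthesis enzymes were higher and the antizymes lower at day 15, by very different amounts. Levels are CPM, the UMIs of a gene summed over cells and scaled by all UMIs of the same cells, and log2 ratios are of CPM + 1, day 15 over day 10. Of the 8 genes, 2 (*ODC1* and *SRM*) were at least 2-fold higher at day 15, where 8.37% of 7648 genes of at least 10 CPM were. *OAZ2* alone was at least 2-fold lower, where 7.96% of the 7648 genes were. *SAT1* lay at the edge of the limit, with a log2 ratio of 1.00 (0.997 before rounding). The median log2 ratio was 0.69 over the 8 genes and -0.15 over all genes. In ENCC alone *SAT1* joined the genes that were at least 2-fold higher, making 3 of 8 against 8.1% of 7101 genes, and *OAZ2* was again the only gene at least 2-fold lower, against 5.39%. The median in ENCC was 0.50 over the 8 genes and -0.14 over all genes. With 8 genes, 2 of which chose the list, these counts say nothing of the pathway as a set.

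**Figure D1:**
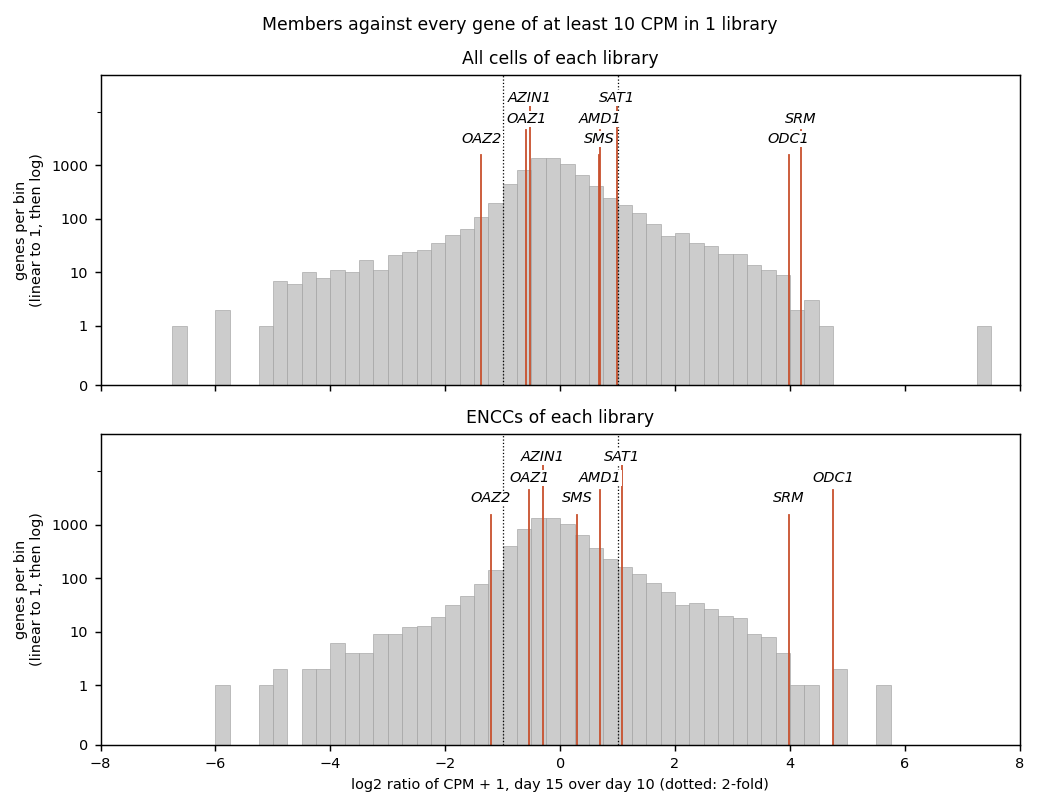
Each grey bar counts the genes (vertical axis, linear to 1 and logarithmic above) in a bin of the log2 ratio of CPM + 1, day 15 over day 10 (horizontal axis), for all cells (top, 7648 genes) and for ENCC (bottom, 7101 genes), with the 8 polyamine genes as red lines and the 2-fold limits dotted. *ODC1* and *SRM* sit in the right tail at 3.98 and 4.20 in all cells and at 4.75 and 3.98 in ENCC, while the other 6 genes lie between -1.37 and 1.08 in both panels.

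*ODC1*, the rate-limiting enzyme, stood at 20.0 CPM (19.0 to 21.1) in the day 10 library. In the day 15 library it stood at 329 CPM (326 to 333), so that its log2 ratio of 3.98 ranked 8 of 7648 genes. Day 10 ENCC held 10.2 CPM (9.20 to 11.3) and day 15 ENCC 301 CPM (296 to 305). This log2 ratio, 4.75, ranked 3 of 7101, and the ratio of the CPM values was 29.5 (26.6 to 32.7). The day 10 level differed by cell type, with ENCC at the bottom. It was 37.8 CPM in NEP, 21.1 in CP, 11.9 in NNE and 10.2 in ENCC, and the intervals of CP and NNE, and of NNE and ENCC, overlapped. At day 15 it was 616 CPM (572 to 663) in NEP, 361 in CP1, 346 in Mes, 301 in ENCC and 179 (140 to 226) in CP2, where the intervals of Mes overlapped those of both CP1 and ENCC. The lowest day 15 type stood 4.74 times as high as the highest day 10 type.

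*SRM*, which makes spermidine from putrescine, had 9.33 CPM (8.64 to 10.1) in the day 10 library against 188 CPM (185 to 191) in the day 15 library. Its log2 ratio, 4.20, ranked 6 of 7648. The ENCC values were 9.99 CPM (8.99 to 11.1) before and 173 CPM (169 to 176) after, and the log2 ratio of 3.98 ranked 7 of 7101. Its day 10 levels were 9.99 CPM in ENCC, 9.17 in CP, 8.05 in NEP and 3.25 (1.19 to 7.07, from 6 UMIs) in NNE, with overlapping intervals between all neighbours in this order and that of ENCC above that of NNE. At day 15 it was 223 CPM in Mes, 216 in CP1, 192 in CP2 and 173 in ENCC, again with overlapping neighbours, and 117 CPM (97.9 to 138) in NEP, whose interval lay below the others. The day 15 NEP class was thus highest in *ODC1* and lowest in *SRM*. For *SRM* the lowest day 15 type was 11.7 times as high as the highest day 10 type. Both genes had every day 15 type above every day 10 type, as did 7.35% of 10439 genes, and none of the 8 had every day 15 type below every day 10 type, as did 4.9%.

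Shares of cells with a UMI were taken after each cell was thinned to 3000 UMIs, which sets the depth equal. An *ODC1* UMI was then found in 2.58% (2.16 to 3.06) of 4919 day 10 ENCC and in 56.9% (55.5 to 58.2) of 4934 day 15 ENCC, against 6.87% and 91.4% without thinning. For *SRM* the thinned shares were 2.89% (2.44 to 3.39) and 39.8% (38.5 to 41.2), against 7.09% and 79.8% without thinning. No cell type is known to lack these genes, so the share that free RNA gives could not be set from the data. Among day 15 ENCC thinned in this way, 22.4% held at least 2 *ODC1* UMIs, and the highest cell held 6.

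*AMD1*, the decarboxylase that supplies the aminopropyl donor, differed less between stages. The libraries held 71.1 CPM (69.2 to 73.1) and 116 CPM (114 to 118), with a log2 ratio of 0.70, and their ENCC 78.2 and 127 CPM, with one of 0.69. Across types it was 78.2 CPM in ENCC, 67.8 in CP, 59.9 in NEP and 46.6 in NNE at day 10, with overlapping neighbours throughout. At day 15 Mes (143 CPM, 113 to 178) and ENCC (127 CPM) stood above CP2, NEP and CP1 (69.7, 63.6 and 54.0 CPM). The stage difference was small outside ENCC, since the other kept cells held 59.6 CPM before and 68.9 CPM after.

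*SMS*, which makes spermine from spermidine, showed the opposite arrangement. The libraries held 85.5 CPM (83.3 to 87.7) and 137 CPM (135 to 140), for a log2 ratio of 0.68, whereas ENCC held 94.0 and 116 CPM, one of 0.30. Kept cells other than ENCC held 78.6 and 196 CPM, which gave 1.31. The day 15 levels were 246 CPM in Mes, 234 in CP1, 189 in CP2, 116 in ENCC and 93.3 in NEP, and those of day 10 were 125 CPM in CP, 94.0 in ENCC, 93.7 in NNE and 68.2 in NEP. The composition of cells other than ENCC differed between the stages, and its part in the ratio was not tested.

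*OAZ1* and *OAZ2*, the antizymes that direct ornithine decarboxylase to degradation, were both lower at day 15. *OAZ1* had 480 CPM (475 to 485) in the day 10 library and 318 CPM (314 to 322) in the later one, and 383 and 263 CPM in their ENCC. The log2 ratios were -0.59 and -0.54. *OAZ2* had 246 CPM (242 to 250) and then 94.6 CPM (92.5 to 96.6), and 209 and 89.9 CPM in ENCC, for log2 ratios of -1.37 and -1.21. In ENCC 96.5% of the 7101 genes had a higher ratio than *OAZ2*. *OAZ1* was lowest in ENCC among the types of both stages, with day 10 values of 750 CPM in NNE, 607 in NEP, 468 in CP and 383 in ENCC, and day 15 values between 421 and 504 CPM in CP1, Mes, CP2 and NEP against 263 in ENCC. *OAZ2* was 209 to 334 CPM in the day 10 types. At day 15 it was 229 CPM (184 to 281) in CP2, 183 in NEP, 130 in Mes, 89.9 in ENCC and 88.8 in CP1, so that CP2 alone reached the range of the day 10 types.

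*AZIN1*, the inhibitor of antizyme, had 56.2 CPM (54.5 to 58.0) in the day 10 library and 38.8 CPM (37.5 to 40.1) in the other, so its log2 ratio was -0.52. Its ratio in ENCC was -0.30, from 42.5 to 34.4 CPM, which lay 0.16 below the median of all genes there. ENCC were the lowest type at both stages, within counting error of CP (46.3 CPM) at day 10 and of Mes (42.8 CPM) at day 15. NNE (145 CPM) at day 10 and CP2 (102 CPM) at day 15 were the highest. The inhibitor therefore followed the direction of the antizymes that it opposes, by a smaller amount.

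*SAT1*, which acetylates spermidine and spermine, had the widest spread across types. In the libraries it was 64.2 CPM (62.3 to 66.1) and 129 CPM (127 to 132), while the ENCC held 49.7 CPM (47.5 to 52.0) and 106 CPM (104 to 109), which gave a log2 ratio of 1.08. At day 10 it was 228 CPM in NNE, 70.8 in NEP, 49.7 in ENCC and 42.3 in CP. At day 15 it reached 1463 CPM (1394 to 1534) in NEP, against 241 in CP2, 219 in Mes, 106 in ENCC and 58.2 in CP1. The highest type was 24.7 times the lowest at day 15 and 5.29 times at day 10, on CPM + 1. Of all 8 genes, 4 at day 10 and 6 at day 15 had a highest type at least 2-fold over the lowest, where 34.4% of 8546 and 72.1% of 9753 genes did. Since the types were clustered on the same genes and the small day 15 types carry wide intervals, such counts are descriptions.

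**Figure D2:**
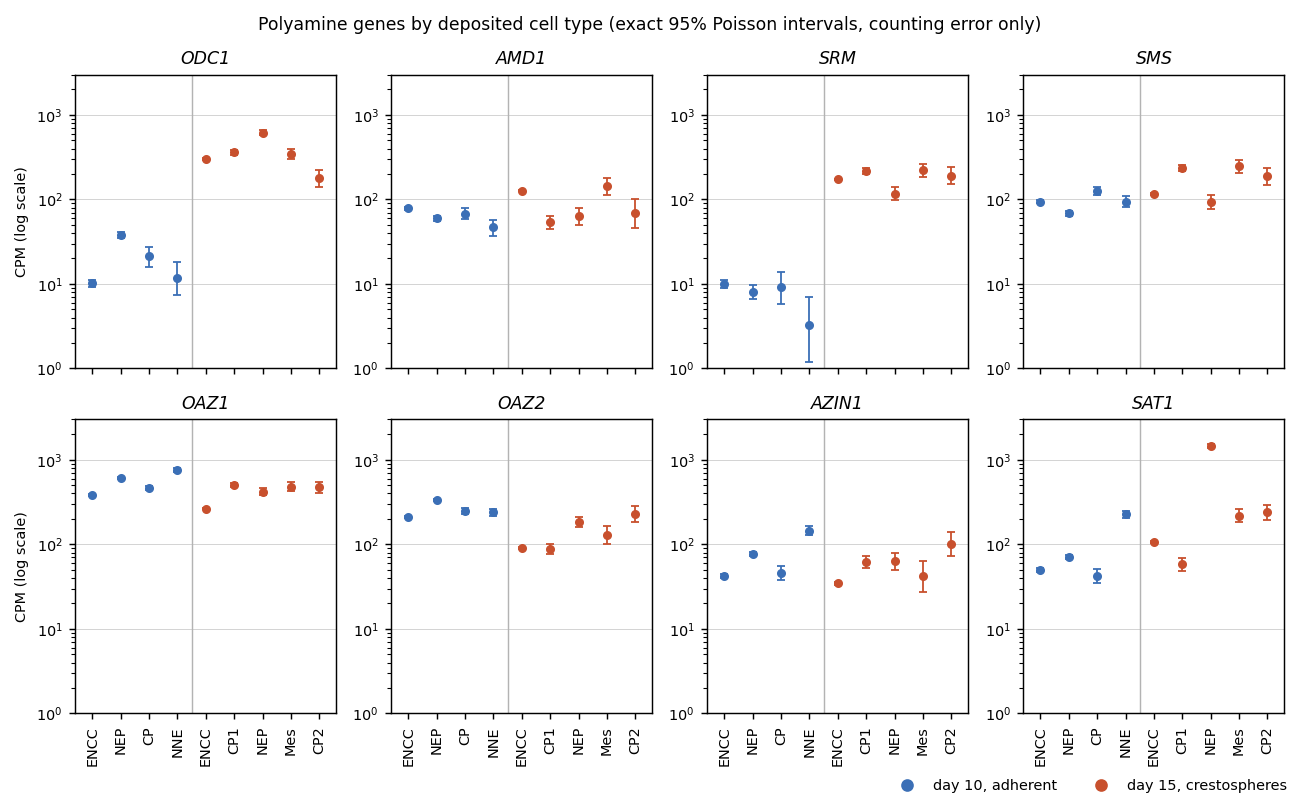
Each panel plots 1 gene, with CPM on a logarithmic vertical axis and the deposited cell types on the horizontal axis, day 10 in blue and day 15 in red, and bars are exact 95% Poisson intervals of the summed UMIs. *ODC1* and *SRM* separate the stages with no overlap (10.2 to 37.8 against 179 to 616 CPM, and 3.25 to 9.99 against 117 to 223 CPM), the other 6 genes overlap between stages, and *SAT1* peaks at 1463 CPM in the 104 day 15 NEP cells.

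The *SAT1* level of the day 15 NEP class was carried unevenly by its 104 cells. Thinned to 3000 UMIs each, 68.3% (58.4 to 77.1) held a *SAT1* UMI, 52.9% held at least 2, 34.6% at least 5 and 13.5% at least 10, with a median of 2 and a highest value of 26. In day 15 ENCC 24.6% (23.4 to 25.8) held at least 1 UMI and 0.203% at least 5. In CP2 51.2% held at least 1 but none of 43 cells at least 5, which allows a share of 6.98% at most. Without thinning, 86.5% (78.4 to 92.4) of the 104 NEP cells held a *SAT1* UMI, with a median of 7 and a highest value of 92. The NEP class thus mixed cells with many and cells with few or no *SAT1* UMIs. The level in the whole class is not that of a typical cell.

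**Figure D3:**
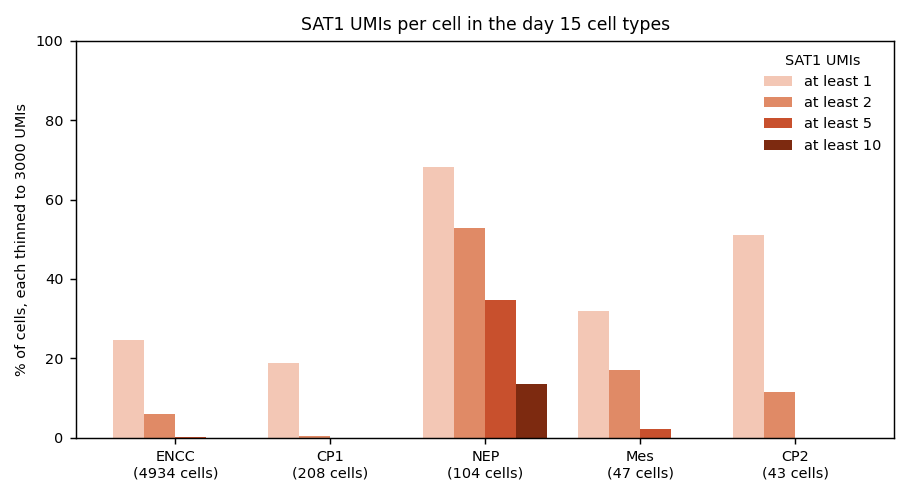
Bars give the percent of cells of each day 15 type (horizontal axis, with cell numbers) that held at least 1, 2, 5 or 10 *SAT1* UMIs after each cell was thinned to 3000 UMIs. In NEP 34.6% of cells held at least 5 UMIs, against 2.13% or less in the other types.

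The depositors divided the ENCC into 4 subclusters at each stage, numbered separately, so that ENCC 1 and ENCC 1' are not counterparts. At day 10 *AMD1* ranged over the 4 subclusters from 75.0 to 98.4 CPM, *SMS* from 93.4 to 114 CPM and *AZIN1* from 38.6 to 42.0 CPM. *SRM* was 22.4 CPM (15.2 to 31.9, from 31 UMIs) in the 187 cells of ENCC 4, against 8.90 to 10.6 CPM in ENCC 1, 2 and 3. *OAZ1* was 551 CPM (520 to 582) in ENCC 3, against 350 to 377 CPM in the other 3. A further 256 day 10 ENCC lay outside the subclusters and stood apart in *ODC1*, at 32.5 CPM (25.4 to 40.8) against 7.84 to 14.7 CPM within them. They were also highest in *OAZ1* (602 CPM, with an interval overlapping that of ENCC 3), *OAZ2* (323 CPM), *AZIN1* (67.6 CPM) and *SAT1* (70.7 CPM). These 256 cells held the ENCC marker *SOX10* at 26.2 CPM, against 104 to 128 CPM in the subclusters and 12.6 CPM in NEP. They held *FOXD3* at 5.78 CPM (3.08 to 9.88), against 6.52 to 28.5 CPM in the subclusters and 1.92 CPM in NEP. That interval overlapped the one of ENCC 4 (2.98 to 12.4). The NEP markers *WNT2B* and *PAX6* were at 649 and 458 CPM in them, against 10.1 to 12.3 and 3.62 to 11.1 CPM in the subclusters. The deposited name ENCC thus goes against the NEP markers in these cells, while both ENCC markers lay between the subclusters and NEP. The part of these cells in the day 10 ENCC values was measured by leaving them out, which gave a log2 ratio of 4.95 for *ODC1* in ENCC.

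At day 15 the 138 cells of ENCC 4' differed from the other subclusters in several of these genes at once. *AMD1* was 265 CPM (240 to 292) there against 109 to 130 CPM in ENCC 1', 2' and 3'. *SAT1* was 318 CPM (290 to 348) against 77.4 to 125 CPM. In the other direction, *OAZ1* was 139 CPM (121 to 159) against 217 to 290 CPM, *OAZ2* was 64.6 CPM (52.5 to 78.8) against 84.3 to 94.1 CPM, and *SMS* was 67.3 CPM (54.9 to 81.7) against 93.1 to 121 CPM. *ODC1* was 325 CPM in ENCC 4', beside 324 in ENCC 2', 300 in ENCC 1' and 222 (212 to 233) in ENCC 3'. *SRM* ranged from 141 CPM in ENCC 3' to 193 in ENCC 2', with 155 in ENCC 4'. ENCC 4' thus stood apart from ENCC 1', 2' and 3' in *AMD1*, *SAT1*, *OAZ1*, *OAZ2* and *SMS*. Of the ENCC markers, *SOX10* was 52.8 CPM there against 90.8 to 116 CPM in the other 3 subclusters, while *FOXD3* was 23.1 CPM (16.1 to 32.1), within the 16.4 to 25.5 CPM of the other 3.

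**Figure D4:**
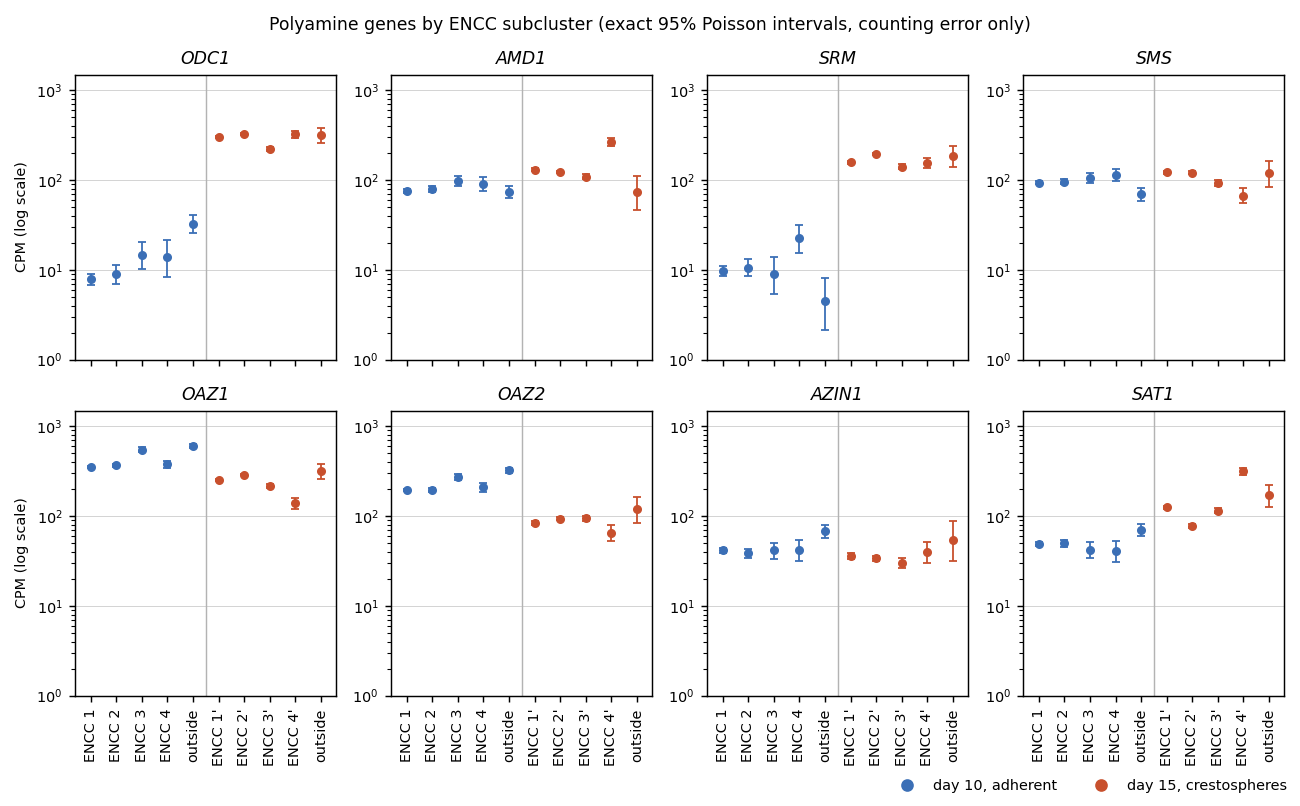
Panels and bars are as in the plot by cell type, with the ENCC subclusters on the horizontal axis and ENCC outside them last for each stage. ENCC 4' sits above ENCC 1', 2' and 3' in *AMD1* (265 CPM) and *SAT1* (318 CPM) and below them in *OAZ1* (139 CPM), and the day 10 ENCC outside the subclusters sit above the others in *ODC1* (32.5 CPM).

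The cell cycle phase of each cell was deposited, and the gene sets commonly used to score phases hold none of the 8 genes. *SMS* was lower in G1 than in S and G2M ENCC at both stages, at 75.6, 105 and 102 CPM at day 10 and at 99.7, 121 and 127 CPM at day 15. *OAZ1* was highest in G2M at both stages, at 421 and 302 CPM, against 366 and 228 CPM in G1. *OAZ2* was lowest in S at both stages, at 177 and 82.6 CPM. *SAT1* was even across phases at day 10 (49.5 CPM in G2M and 49.6 in S, with G1 overlapping both), while at day 15 it was 146 CPM (141 to 152) in G1, 87.2 in S and 88.9 in G2M. *SRM* was likewise even at day 10 (9.94 to 10.0 CPM), and at day 15 it was 192 CPM in S, 172 in G2M and 147 in G1. *ODC1* at day 15 was 346 CPM in G2M, 296 in G1 and 278 in S, and its day 10 intervals overlapped between neighbouring phases.

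**Figure D5:**
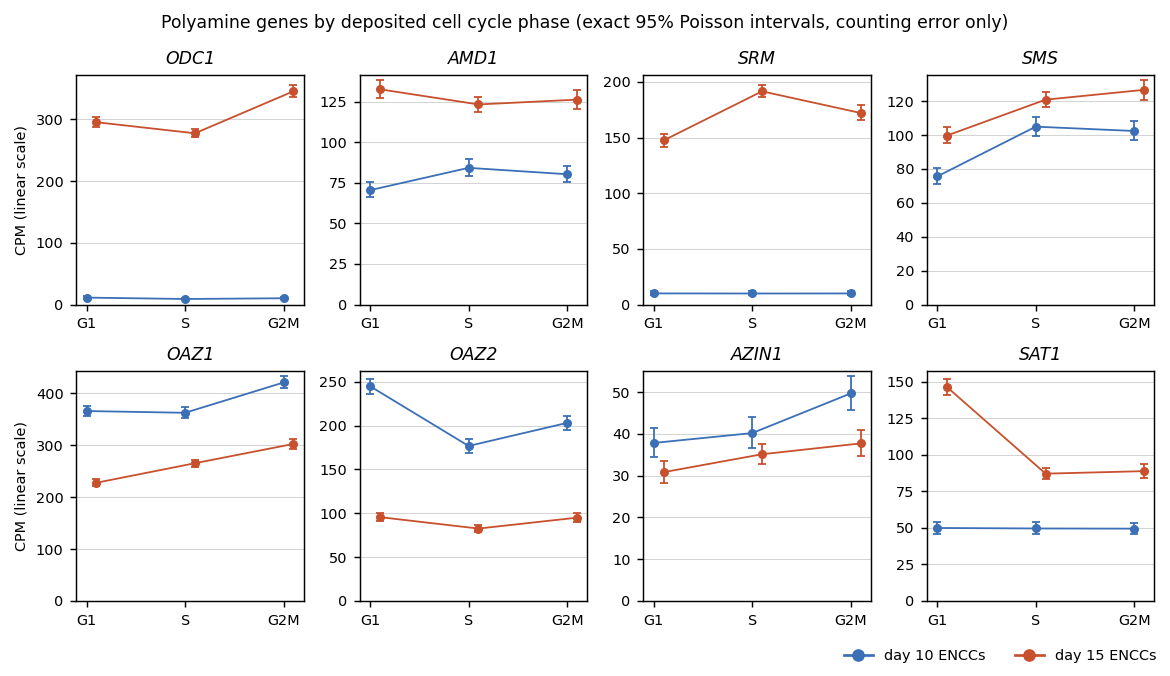
CPM in ENCC (vertical axis, linear from 0) by deposited phase (horizontal axis) for each gene, day 10 in blue and day 15 in red, with exact 95% Poisson intervals. *SMS* is lowest in G1 at both stages, and *SAT1* is highest in G1 at day 15 (146 CPM) and level at day 10.

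Set against each other, the genes changed places in the balance of synthesis and antizyme UMIs. Counts at the 3′ end are not scaled by gene length, since each captured molecule gives 1 UMI. Genes can still differ in capture and in reads shared with pseudogenes, which was not measured. The values are therefore shares of the summed UMIs of the 8 genes, and not of their RNA. In day 10 ENCC *OAZ1* and *OAZ2* together made up 67.5% of these UMIs (67.0 to 68.0), *AMD1* and *SMS* 19.6%, *SAT1* 5.67%, *AZIN1* 4.85% and *ODC1* and *SRM* 2.30% (2.14 to 2.47). In day 15 ENCC *ODC1* and *SRM* made up 39.1% (38.8 to 39.5), the antizymes 29.2% (28.8 to 29.5), *AMD1* and *SMS* 20.1%, *SAT1* 8.78% and *AZIN1* 2.85%. Per 100 *OAZ1* UMIs there were 2.67 *ODC1* UMIs in day 10 ENCC and 114 in day 15 ENCC. This shift rests on *ODC1* and *SRM*, which chose the list, together with the lower antizymes, and says nothing of protein.

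Depth and cell quality moved with stage, and their values stand beside the result. Within day 15 ENCC split into 4 equal groups by UMI count, *ODC1* was 281 to 326 CPM and *SRM* 155 to 183 CPM, and within day 10 ENCC 6.90 to 11.5 and 9.63 to 10.5 CPM. In cells with 5000 to 10000 UMIs the log2 ratio in ENCC was 4.76 for *ODC1* and 3.86 for *SRM*. Cells that the depositors removed had *ODC1* at 28.1 CPM at day 10 and 380 CPM at day 15, against 17.8 and 309 CPM in the kept cells.

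Base composition and related sequences were also compared, the former chosen after the data were seen. Over the last 500 bases of the transcript the GC content was 63.7% for *SRM*, which places it in the highest of 10 groups of genes ordered by GC, where 17.5% were at least 2-fold higher at day 15. It was 49.6% for *ODC1*, in group 7, where 7.68% were. The rank correlation of GC content with the log2 ratio was 0.038 across 7248 genes, which are not independent. Pseudogenes named after the gene exist for *AMD1* (4), *SRM* (3), *SMS* (1) and *OAZ1* (1). None of these pseudogenes had a row, and reads shared with them could have been assigned to either copy or discarded. Among genes with a named pseudogene 8.21% were at least 2-fold higher at day 15, and among those without 8.41%. *OAZ1*, *OAZ2* and *AZIN1* each overlap a gene on the opposite strand that had a row of its own (*JSRP1*, *AC100830.3* and *AZIN1-AS1*), and the strand setting of the counting is not given in the sources used here.

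The wider pathway was read from 8 lists of 55 genes chosen by function, of which 32 reached 10 CPM in 1 library. Of these, 2 were at least 2-fold higher at day 15 (6.25%, against 8.37% of all genes) and 3 at least 2-fold lower (9.38%, against 7.96%), with a median log2 ratio of -0.13. In ENCC 30 entered, 2 were higher (6.67%, against 8.1% of all genes) and 3 lower (10.0%, against 5.39%), with a median of -0.18. With counts of 2 and 3 genes, nothing is read from these shares. Precursor supply was mixed. *SLC7A1*, a transporter of arginine and ornithine, went from 5.96 to 14.4 CPM (log2 ratio 1.15), while in ENCC it was 6.74 and 10.2 CPM (0.53). *SLC3A2*, the heavy chain of amino acid transporters, was 39.7 and 109 CPM in ENCC (1.43), while in all cells it was 70.1 and 110.3 CPM (0.65), inside the limit. *ASS1*, which makes the precursor of arginine, was 30.6 and then 3.92 CPM (-2.68). *ARG2*, a mitochondrial arginase that makes ornithine, was 24.1 and 9.01 CPM in ENCC (-1.33), while in all cells it was 23.4 and 13.0 CPM (-0.80), inside the limit.

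In the methionine cycle, which feeds S-adenosylmethionine, *BHMT*, a methyltransferase that remakes methionine from betaine, was the only gene past the limit. It had 2162 UMIs (30.7 CPM) in the day 10 library and 0 in the day 15 library, a level at least 869-fold lower when 3 counts are taken for the 0. At day 10 it was 84.4 CPM in NEP and 4.33 CPM in ENCC, and in the ENCC outside the subclusters it was 60.0 CPM. The NEP were 1811 cells at day 10 and 104 at day 15, where the interval of *BHMT* reached 3.22 CPM. The part of this composition in the ratio of the libraries was not tested. *MTR* (20.0 and 31.1 CPM) was the highest of this list by ratio, at 0.61. The 6 genes of methylthioadenosine salvage, which recycles the by-product of the aminopropyl transfers, lay between -0.44 (*ADI1*) and 0.23 (*ENOPH1*). The remaining antizyme and inhibitor genes, *OAZ3* and *AZIN2*, stayed under 10 CPM in both libraries.

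Of the oxidation and acetylation genes, *SAT2*, a relative of *SAT1*, went from 157 to 58.7 CPM (-1.40), and in ENCC from 126 to 56.7 CPM (-1.14), in the direction opposite to *SAT1*. Under TMM scaling, which sets the libraries level on the bulk of their genes, its ratio in ENCC was -0.96, inside the limit. *SMOX*, which oxidises spermine, was 10.7 and 10.9 CPM. Among the transporters, *ATP13A3* and *SLC18B1* entered, at -0.13 and -0.56. *EIF5A*, the protein whose hypusine residue is made from spermidine, was 707 and 793 CPM in the libraries and 818 and 764 CPM in ENCC, and *DHPS*, the first enzyme of that modification, was 62.6 and 50.2 CPM. *EIF5A2* (7.09 and 10.1 CPM) was the highest of this list by ratio, at 0.46.

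The last list held the MYC network, whose proteins bind the motif printed above. *MYC* was 1.83 CPM (129 UMIs) at day 10 and 8.86 CPM (753 UMIs) at day 15, below the minimum of 10 CPM, and 1.92 and 5.68 CPM in ENCC. Its log2 ratios were 1.80 in all cells and 1.19 in ENCC, past the limit but from levels too low to enter. *MYCN* was 14.7 and 25.2 CPM in the libraries, and 19.2 and 23.8 CPM in ENCC, a log2 ratio of 0.30. *MXI1*, an antagonist of MYC, was the only entered gene of the list at least 2-fold higher, at 11.6 and 39.8 CPM (1.70). *MLX*, a partner protein of the network, was the lowest by ratio, at 27.7 and 16.9 CPM (-0.68). At day 15 *MYC* was highest in CP1 (23.4 CPM) and *MYCN* in Mes (37.4 CPM), whereas *ODC1* was highest in NEP, where *MYC* was 1.74 CPM (2 UMIs) and *MYCN* 5.23 CPM. The order of the types thus differed between *ODC1* and these 2 genes. *SRM*, the other gene with the motif, was highest in Mes (223 CPM) at day 15, as was *MYCN*. For both genes the interval of Mes overlapped that of CP1. By value *SRM* was lowest in NEP (117 CPM), as were *MYC* and *MYCN*. However, the NEP interval of *MYC* (0.211 to 6.30 CPM) overlapped that of ENCC. The NEP interval of *MYCN* (1.92 to 11.4 CPM) overlapped that of CP2, so these lowest places are not resolved for *MYC* and *MYCN*. A part of the MYC network in the levels of *ODC1* or *SRM* was not tested.

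The genes most like each member across the 9 cell types of both stages were taken by the Pearson correlation of log2(CPM + 1) among 10338 genes, which describes 9 points that share 2 libraries and carries no test. They were *DUSP15* (0.99), *PRR7* (0.99) and *ZNF625* (0.98) for *ODC1*, and *PPP1R14B* (0.99), *CHRNA5* (0.99) and *URI1* (0.99) for *SRM*. For *SMS* they were *PSMA7*, *WBP11* and *IMMT* (0.93 to 0.96), and for *AMD1* they were *MRTO4*, *TIMP3* and *DUT* (0.92 to 0.95). The antizymes were closest to *IGF2BP3*, *PSMB3* and *RAB11A* (0.92 each, *OAZ1*) and to *PAXIP1-AS1*, *RNF214* and *C11orf74* (0.95 to 0.97, *OAZ2*). *AZIN1* was closest to *ZNF317*, *GCNT2* and *DCAF6* (0.96 to 0.98), and *SAT1* to *TP53I3*, *NGLY1* and *TMED10* (0.95 to 0.97). *ODC1* and *SRM* reached 0.93 with each other, and the gap between the stages that chose them is shared by both.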

How the data were processed

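Droplet 3′ single-cell RNA sequencing gave 1 library at day 10 and 1 at day 15, from H9 cells. The authors deposited raw counts of UMIs per gene and cell, whole numbers without normalization, and a table with each cell's type, ENCC subcluster, phase and percent of mitochondrial and ribosomal UMIs, as deposited. The study's methods name kallisto and bustools for the counts, while the submitters' processing notes name Cell Ranger, Seurat 4.0.4 and GRCh38. The percent columns were used only to describe the libraries (median mitochondrial UMIs 3.63% at day 10 and 2.79% at day 15). Types and subclusters were those deposited, which came from Louvain clustering of each library; no doublet caller was run, and cells above the authors' UMI limit are among those they removed.

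Counts were summed per class and scaled to CPM. Sums carry exact Poisson intervals and shares exact Clopper-Pearson intervals, at 95%. A sum of 0 was taken to allow 3 counts, which is 0.0426 CPM in the day 10 and 0.0353 CPM in the day 15 library. Ratios used a pseudocount of 1 CPM and genes of at least 10 CPM in 1 of the sums. With 1 library per stage no p-value was computed, and past 2-fold replaces a call. Thinning drew 3000 UMIs per cell without replacement and left out shallower cells (586 at day 10, 2 of them ENCC). Coordinates and transcripts were from GENCODE and promoter windows from RefSeq, GRCh38.p14. The ratio and thinning steps were tested on simulated data. Python 3.11.15, numpy 2.4.6, scipy 1.17.1, pandas 2.3.3, matplotlib 3.10.9, R 4.3.3 and edgeR 4.0.16 (for TMM factors only) were used.

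The 8 genes and the pathway lists were chosen with earlier results of these data known. Genes named were the 8, the pathway genes past 2-fold or at the ends of their list, and the 3 genes most like each of the 8. Alternatives tried were TMM scaling, totals without mitochondrial and ribosomal protein genes, other pseudocounts, means of single cells, thinning, a depth window, kept cells, numbered subclusters and other minimum levels.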

Additional observations from a re-analysis of the deposited data

How the results depend on the processing

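No paired analysis was possible because each stage is 1 library, and for the same reason no replicate could be left out. Across the alternatives for scaling, pseudocount, depth and cell selection, all 128 recomputed log2 ratios of the 8 genes between stages kept their sign. In ENCC they ranged from 4.33 to 4.95 for *ODC1*, 3.57 to 4.16 for *SRM*, 1.02 to 1.26 for *SAT1* and -1.26 to -1.02 for *OAZ2*. TMM scaling raised the ratios by 0.18 to 0.19 and the median of all genes by as much. *SAT1* in all cells, just under the limit with a pseudocount of 1 CPM, passed it under the other alternatives except the pseudocount of 5 CPM, so that 3 genes in place of 2 were at least 2-fold higher. Counts over the pathway lists depended on the minimum level and, in ENCC, on the scaling, since TMM left 2 genes lower in place of 3. With at least 1 CPM 4 genes were higher and 5 lower in all cells, and 5 higher in ENCC. With at least 50 CPM 0 were higher and 1 lower in all cells, and 1 higher and 1 lower in ENCC. Shares of cells with a UMI moved with depth, as the thinned and unthinned values show. Depth limits the small types, where *SRM* in day 10 NNE rests on 6 UMIs and *AMD1* in day 15 CP2 on 28.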
